A study of Mus musculus with 8 samples.

Results

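Lipid-associated macrophages are cells that take up and store lipid in fatty, atherosclerotic or tumor tissue. TREM2 is a lipid-sensing surface receptor that signals through the adaptor TYROBP (also called DAP12) and the kinase SYK. Macrophages in this state express a shared set of genes for lysosomes, secreted glycoproteins, fatty acid carriers and lipid droplets. The 10 genes described here, Trem2, Tyrobp, Gpnmb, Spp1, Cd9, Cd63, Fabp4, Fabp5, Lgals3 and Plin2, were taken by gene symbol from the 53247 genes of an RNA-Seq table of tumor-associated macrophages (TAMs). Each symbol had 1 line in the table, and all 10 genes were among the 13363 genes tested.

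Cells positive for CD45, CD11b, MHCII and F4/80 were sorted as TAMs from digested subcutaneous tumors of Lewis lung carcinoma (LLC), a mouse lung cancer line. The 4 WT and 4 miR-21 null (miR-21-/-) C57/BL6 samples came from mice given as 10 weeks old, 14 days after the implantation of LLC cells. The miR-21-/- mice lack the microRNA in all of their own cells, not in macrophages alone. The WT samples are titled miRWT1 to miRWT4, and miR-21-/- replicates 1 to 4 are titled miRKO1-2, miRKO3, miRKO4 and miRKoX. The replicate numbers of the miR-21-/- samples used here follow the order of the samples and not their titles. The title of miR-21-/- replicate 1 carries 2 numbers, and whether it pools mice is not stated.

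The deposited values are counts per 1e+06 reads (CPM). Depth, read from the value of 1 read, was 20.2 to 33.4 in units of 1e+06 reads per sample, and each of the 10 genes had at least 236 reads in every sample. The values of a sample summed to 788099 to 807758 CPM over all listed genes, under 1e+06. This depth is therefore not the number of reads counted in those genes. Mir21a, the deleted gene, was listed at 0.0001 CPM in all 8 samples, which is the value for no counted reads, so it could not check the genotype labels. All 8 macrophage markers that were looked up (Adgre1, Csf1r, Cd68, Fcgr1, Mertk, Itgam, Ptprc and Lyz2) were among the tested genes, with a summed level of 9662 to 11345 CPM in WT and 10414 to 13118 CPM in miR-21-/- TAMs. Lyz2 makes up the largest part of that sum, and its members did not move together. Fcgr1 passed the threshold described below as higher in miR-21-/- TAMs (0.75 on the log2 scale), while Csf1r (-0.48) and Adgre1 (-0.38) were lower with no overlap and did not pass. In bulk RNA, a change in the number of cells that express a gene and a change in RNA per cell cannot be told apart.

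The comparison of genotypes asked which of these genes differ in TAMs that lack miR-21. Fold changes are given as log2 fold changes of CPM + 1, miR-21-/- over WT, from limma, and values after ± are SDs over the 4 samples of a genotype. P-values were adjusted over all 13363 tested genes by the Benjamini-Hochberg method. The threshold was that of the study, which combines an adjusted p of at most 0.005 with more than a 1.5-fold difference (0.58 on the log2 scale). None of the 10 genes passed it, against 7.24% of all tested genes, and 4 of the 10 had an unadjusted p under 0.05, as did 47.1% of all tested genes. Fabp5 and Plin2, which carry and store fatty acids, and Lgals3 were the 3 genes that reached an adjusted p at or under 0.05, all of them higher in miR-21-/- TAMs. In that direction 9.74% of all tested genes reached this limit, while 27.1% reached it as lower in miR-21-/- TAMs, among them none of the 10. These 3 genes were also the only ones of the 10 with no overlap between the WT and the miR-21-/- samples, and 35.7% of all tested genes had none. The median log2 fold change of the 10 genes was 0.22, with 7 genes higher and 3 lower, against a median of -0.10 over all tested genes.

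**Figure D1:**
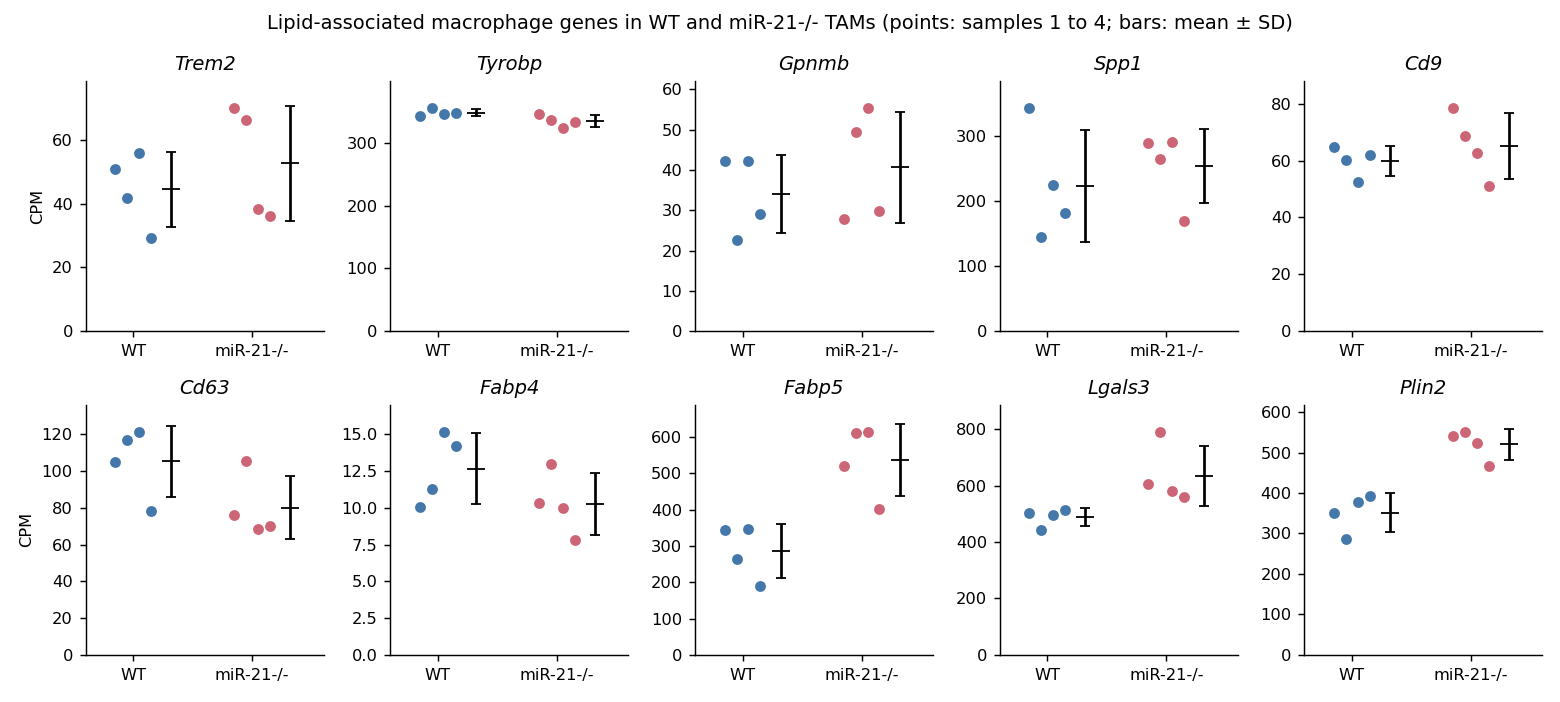
CPM of the 10 genes in each of the 4 WT (blue) and 4 miR-21-/- (red) samples, in the order of replicates 1 to 4, with the mean ± SD beside them; each axis starts at 0. The samples of both genotypes are apart for Fabp5, Lgals3 and Plin2 and overlap for the other 7 genes.

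Levels were first compared between the genes per kb of annotated exon (CPM per kb), since a longer transcript yields more reads. In WT TAMs Tyrobp had the highest mean level of the 10, at 583 CPM per kb. It was followed by Fabp5 at 290, Lgals3 at 263, Plin2 at 167, Spp1 at 135, Cd63 at 64.8, Cd9 at 48.7, Trem2 at 38.9, Fabp4 at 14.1 and Gpnmb at 7.54 CPM per kb. The WT samples overlapped between 4 pairs of neighbours in this order, Fabp5 and Lgals3, Plin2 and Spp1, Cd63 and Cd9, and Cd9 and Trem2. In miR-21-/- TAMs the mean level of Fabp5, 543 CPM per kb, came close to the 560 CPM per kb of Tyrobp, and the samples of both genes overlapped.

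The sequences that bear on the missing microRNA are those of miR-21 and of the bases in these genes that could pair with it. miR-21 is encoded at chr11:86584120-86584141 on the minus strand (RefSeq, GRCm38.p6), and its seed, bases 2 to 8, is in capitals. The longest annotated 3′ UTR of each of the 10 genes (GENCODE vM21, GRCm38) was searched for the complement of seed bases 2 to 7, TAAGCT, and 3 genes held 1 match each. They are shown 5′ to 3′ with the bases that pair with the seed in capitals.

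mmu-miR-21a-5p: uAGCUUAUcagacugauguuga

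Gpnmb, from base 469 of its 3′ UTR: aaggcagtctaATAAGCTgtgtgatt

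Fabp5, from base 385 of its 3′ UTR: tgccccgtcattTAAGCTtgccttaa

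Lgals3, from base 322 of its 3′ UTR: ggtggttgtaagTAAGCTgtgtgacc

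The positions given are those of the 6-base match. That of Gpnmb extends to base 8 of the seed, for 7 bases in all, and those of Fabp5 and Lgals3 do not. Over the 21022 genes with a 3′ UTR, 23.4% held the 6-base match and 7.18% the 7-base match, in 3′ UTRs with a median length of 961 bases. Those of Gpnmb, Fabp5 and Lgals3 are 1868, 487 and 480 bases long. The other 7 genes, Trem2 and Plin2 among them, had no match in 3′ UTRs of 82 to 468 bases. A match of these letters describes the sequence and is not a measured binding site.

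Trem2 (ENSMUSG00000023992, chr17:48346401-48354147, plus strand), the receptor, was at 50.9, 41.8, 55.8 and 29.1 CPM in WT samples 1 to 4. In miR-21-/- samples 1 to 4 it was at 69.97, 66.0, 38.2 and 36.0 CPM. Replicates 1 and 2 of the miR-21-/- TAMs lay above every WT sample, while replicates 3 and 4 lay within the WT range. The WT mean was 44.4 ± 11.7 CPM and the miR-21-/- mean 52.6 ± 17.9 CPM, and the log2 fold change was 0.22 with a standard error of 0.25 (adjusted p = 0.529 from limma). The 95% interval ran from -0.34 to 0.78, so a change of 1.5-fold upward lies within it and one of 1.5-fold downward does not. With single samples removed, the value ran from 0.03 without WT replicate 4 to 0.37 without miR-21-/- replicate 4.

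Tyrobp (ENSMUSG00000030579, chr7:30413760-30417585, plus strand) encodes the adaptor that carries the TREM2 signal and also serves other myeloid receptors. Its WT values were 342, 356, 346 and 348 CPM, and its miR-21-/- values were 346, 337, 323 and 332 CPM. No gene of the 10 varied less between samples. The log2 fold change was -0.06 (95% interval -0.16 to 0.05, adjusted p = 0.371 from limma), which excludes a 1.5-fold change either way. The value was 0.05 after rescaling by the median of ratios and -0.11 with quantile normalization, and the former was the 1 alternative that turned its sign. The log2 ratio of Trem2 to Tyrobp, the receptor over its adaptor, was -2.98 ± 0.41 in WT and -2.71 ± 0.46 in miR-21-/- TAMs (exact permutation test, two-sided, p = 0.429).

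The promoter of Trem2, 250 bases before to 50 after its start, is printed with those of Plin2 and Lgals3, the 2 genes of the group that were higher in miR-21-/- TAMs at an adjusted p at or under 0.05 and had a promoter in the table used. Promoters of 7 of the 10 genes were found there (RefSeq, GRCm38.p6). The window of Lgals3 lies inside the span given for that gene below, so its start is not the first base of that span. Capitals mark matches on either strand to 4 motifs, the E-box CACGTG, the AP-1 site TGANTCA, the nuclear receptor half-site AGGTCA and the CCAAT box, none of which overlapped.

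Trem2, chr17:48346151-48346450, plus strand: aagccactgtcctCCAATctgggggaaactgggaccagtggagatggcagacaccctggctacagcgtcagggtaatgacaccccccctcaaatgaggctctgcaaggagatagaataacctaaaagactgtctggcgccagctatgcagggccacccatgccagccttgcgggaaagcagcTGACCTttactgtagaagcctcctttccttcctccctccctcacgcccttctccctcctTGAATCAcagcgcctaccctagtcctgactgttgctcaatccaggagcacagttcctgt

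Plin2, chr4:86670010-86670309, minus strand: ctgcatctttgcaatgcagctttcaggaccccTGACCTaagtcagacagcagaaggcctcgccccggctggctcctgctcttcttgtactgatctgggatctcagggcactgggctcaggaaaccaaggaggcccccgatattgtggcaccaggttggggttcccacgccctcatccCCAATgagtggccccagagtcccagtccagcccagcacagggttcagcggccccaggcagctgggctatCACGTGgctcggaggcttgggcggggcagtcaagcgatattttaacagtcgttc

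Lgals3, chr14:47373610-47373909, plus strand: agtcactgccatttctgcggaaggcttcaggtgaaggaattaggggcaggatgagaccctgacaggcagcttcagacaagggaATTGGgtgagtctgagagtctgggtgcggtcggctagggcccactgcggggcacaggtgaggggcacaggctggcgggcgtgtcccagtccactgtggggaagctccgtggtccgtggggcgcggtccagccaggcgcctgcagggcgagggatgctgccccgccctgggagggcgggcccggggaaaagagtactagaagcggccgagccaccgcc

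The Plin2 promoter held 1 E-box, 1 half-site and 1 CCAAT box, that of Trem2 1 AP-1 site, 1 half-site and 1 CCAAT box, and that of Lgals3 1 CCAAT box. Of the 32851 promoters in the table, 7.15% held the E-box, 7.81% the AP-1 site, 16.3% the half-site and 37.4% the CCAAT box. The matches are descriptions of these windows, and nothing about the factors was measured.

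Plin2 (ENSMUSG00000028494, chr4:86648386-86670060, minus strand) encodes perilipin 2, a protein that coats lipid droplets. It was at 350, 286, 379 and 393 CPM in WT replicates 1 to 4 and at 541, 552, 524 and 466 CPM in miR-21-/- replicates 1 to 4. Every miR-21-/- sample lay above every WT sample. From 352 ± 47.3 to 521 ± 38.4 CPM, the log2 fold change was 0.57 with a standard error of 0.10 (adjusted p = 0.00205 from limma). This is a fold change of 1.486 on the fitted scale, just under the 1.5-fold limit, so Plin2 met the limit on p and not the one on size. The gene passed both without WT replicate 3 (0.61), without WT replicate 4 (0.63) and without miR-21-/- replicate 4 (0.62), and also after rescaling by the median of ratios (0.68) and with arrayWeights (0.60). In the other direction, the adjusted p of Plin2 from limma rose above 0.005 when the low-value filter was dropped (0.012), with the replicate number as a block (0.0067), and without WT replicate 1 (0.00563) or miR-21-/- replicate 1 (0.00666), 2 (0.00774) or 3 (0.00725). Its log2 fold change was 0.51 with quantile normalization and 0.48 without WT replicate 2.

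Fabp5 (ENSMUSG00000027533, chr3:10012548-10016607, plus strand) and Fabp4 (ENSMUSG00000062515, chr3:10204088-10208576, minus strand) are nearby genes for cytosolic fatty acid binding proteins. Fabp5 was at 345, 263, 348 and 189 CPM in WT samples 1 to 4. In miR-21-/- samples 1 to 4 it was at 519, 610, 615 and 402 CPM, so that the lowest miR-21-/- sample was above the highest WT sample. The means were 286 ± 75.7 CPM and 536 ± 99.99 CPM, and the log2 fold change of 0.93 (standard error 0.20) was the largest of the 10 genes. Its adjusted p from limma, 0.00567, missed the limit, and its 95% interval was 0.48 to 1.37. Without miR-21-/- replicate 4, the lowest of its group, Fabp5 passed the threshold (1.06, adjusted p = 0.00392 from limma). It also passed after rescaling by the median of ratios, with arrayWeights and with the replicate number as a block. In the other alternatives that kept both limits it did not pass. Over all alternatives the adjusted p from limma ran from 0.000866, with the block, which joins samples by their order, to 0.0304 with no filter on low values.

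Fabp4 had far fewer reads, with 10.0, 11.3, 15.2 and 14.2 CPM in the WT samples and 10.3, 13.0, 10.0 and 7.81 CPM in the miR-21-/- samples. The groups overlapped, and its log2 fold change was -0.28 (95% interval -0.63 to 0.07, adjusted p = 0.189 from limma), between -0.17 without miR-21-/- replicate 4 and -0.39 without miR-21-/- replicate 2. The log2 ratio of Fabp5 to Fabp4 was 4.97, 4.43, 4.43 and 3.65 in WT replicates 1 to 4, against 5.52, 5.45, 5.80 and 5.51 in miR-21-/- replicates 1 to 4. It was higher in all 4 miR-21-/- samples than in any WT sample, with a difference in means of 1.20. The two-sided exact permutation test gave p = 0.0286, and none smaller can arise with 4 samples a side. Adjusted over the 3 ratios tested between members, this p was 0.0857. The other 8 genes of the family, Fabp1, Fabp2, Fabp3, Fabp6, Fabp7, Fabp9, Fabp12 and Pmp2, were all below the filter on low values, with a highest value of 0.540 CPM (Fabp7), and 5 of them were listed at 0.0001 CPM in all samples.

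Reads of Fabp5 can be shared with pseudogenes. A search of the GENCODE transcripts with the mRNA of each of the 10 genes (at least 90% identity over at least 200 bases) found 5 such copies of Fabp5. The most abundant, Gm6166, is 98.3% identical over 409 bases and averaged 51.8 ± 14.3 CPM in the WT samples and 92.4 ± 18.9 CPM in those without miR-21, or 15.8% to 19.0% of the Fabp5 value in every sample. With all copies summed, Fabp5 was at 346 ± 90.3 and 643 ± 120 CPM, and its log2 fold change was 0.91 (adjusted p = 0.00583 from limma).

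Cd63 was affected more. Its processed pseudogene Cd63-ps, 98.5% identical over 812 bases, averaged 78.9 ± 13.3 CPM in the WT samples and 64.9 ± 12.4 CPM in those without miR-21, 71.4% to 84.7% of the value given for Cd63 itself. How the counting divided reads between the pair is not given in the sources used here, and the level of Cd63 is uncertain for that reason. Of the other genes, Cd9 and Plin2 had copies that each stood at no more than 7.32% of their own value, and no copy was found for the remaining 6.

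**Figure D2:**
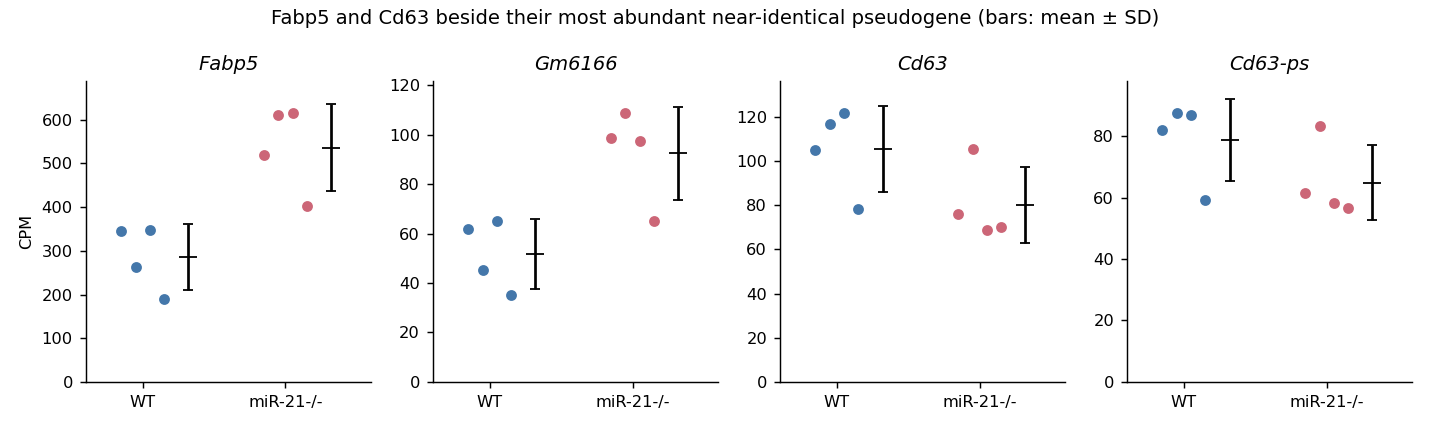
CPM of Fabp5 and Cd63 and of the most abundant near-identical pseudogene of each, in 4 WT (blue) and 4 miR-21-/- (red) samples, with the mean ± SD. Gm6166 lies between 15.8% and 19.0% of Fabp5 and Cd63-ps between 71.4% and 84.7% of Cd63 in every sample. The genotypes are apart for Fabp5, touch for Gm6166 (65.2 CPM in the highest WT and 65.0 CPM in the lowest miR-21-/- sample) and overlap for Cd63 and Cd63-ps.

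Cd63 (ENSMUSG00000025351, chr10:128900989-128912822, plus strand) encodes a tetraspanin of late endosomes and lysosomes. It was at 105, 117, 122 and 78.3 CPM in the WT samples and at 76.0, 106, 68.8 and 70.3 CPM in the miR-21-/- samples. A single WT sample, replicate 4, lay close to the 3 lower miR-21-/- values, and miR-21-/- replicate 2 fell among the higher WT values. The log2 fold change of -0.39 (95% interval -0.75 to -0.04) had an unadjusted p of 0.0336 and an adjusted p of 0.0785 from limma. Without WT replicate 4 or miR-21-/- replicate 2 it was -0.53, with an adjusted p of 0.0151 or 0.0191 from limma. The adjusted p from limma was also under 0.05 with arrayWeights (-0.45, 0.0394) and with the replicate number as a block (-0.39, 0.0305). The log2 fold change was -0.34 when the pseudogene was added (adjusted p = 0.106 from limma).

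Cd9 (ENSMUSG00000030342, chr6:125460266-125494791, minus strand), a tetraspanin of the cell surface, was at 64.8, 60.0, 52.5 and 62.0 CPM in WT and at 78.5, 68.5, 62.7 and 50.9 CPM in miR-21-/- samples. The miR-21-/- samples covered a wider range that held the whole WT range. The log2 fold change was 0.11 (95% interval -0.16 to 0.37, adjusted p = 0.503 from limma), and a 1.5-fold change lies outside that interval. The value moved between 0.01 without miR-21-/- replicate 1 and 0.22 without miR-21-/- replicate 4. The log2 ratio of Cd63 to Cd9 was 0.79 ± 0.37 in WT and 0.29 ± 0.30 in miR-21-/- TAMs (exact permutation test, two-sided, p = 0.114).

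Lgals3 (ENSMUSG00000050335, chr14:47367751-47386160, plus strand) encodes galectin-3, a sugar-binding lectin that macrophages secrete and that gathers at damaged lysosomes. Its WT values were 504, 442, 496 and 512 CPM, and its miR-21-/- values were 605, 792, 580 and 561 CPM. All miR-21-/- samples were above all WT samples, with replicate 2 the highest. From 489 ± 31.6 to 635 ± 106 CPM, the log2 fold change was 0.36 with a standard error of 0.11 (adjusted p = 0.0231 from limma). The adjusted p exceeded 0.05 without WT replicate 2 (0.0676, log2 fold change 0.32) and with no filter on low values (0.0760), and the range over all alternatives was 0.00867 to 0.0760. Of the 3 genes that were higher at this limit, Lgals3 had the smallest difference, at 0.36 against 0.57 for Plin2 and 0.93 for Fabp5.

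Spp1 (ENSMUSG00000029304, chr5:104435118-104441050, plus strand) encodes osteopontin, a secreted ligand of integrins and CD44. It was at 343, 144, 224 and 182 CPM in WT and at 288, 264, 290 and 169 CPM in miR-21-/- samples. The WT samples alone spanned more than a doubling in level, and the whole miR-21-/- range lay inside the WT range. The log2 fold change was 0.22 (95% interval -0.34 to 0.79, adjusted p = 0.514 from limma). With single samples removed, it ran from 0.04 without WT replicate 2 to 0.45 without WT replicate 1.

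Gpnmb (ENSMUSG00000029816, chr6:49036546-49070929, plus strand), a glycoprotein of lysosomes and the cell surface, carried the 7-base seed match printed above. Its WT values were 42.2, 22.7, 42.3 and 29.1 CPM and its miR-21-/- values were 27.8, 49.4, 55.4 and 29.8 CPM. Both genotypes divided into a pair of higher and a pair of lower samples. The log2 fold change of 0.23 (95% interval -0.33 to 0.80, adjusted p = 0.503 from limma) was within the spread between replicates. It was 0.06 without WT replicate 2 and 0.39 without miR-21-/- replicate 1, the ends of the range with single samples removed.

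**Figure D3:**
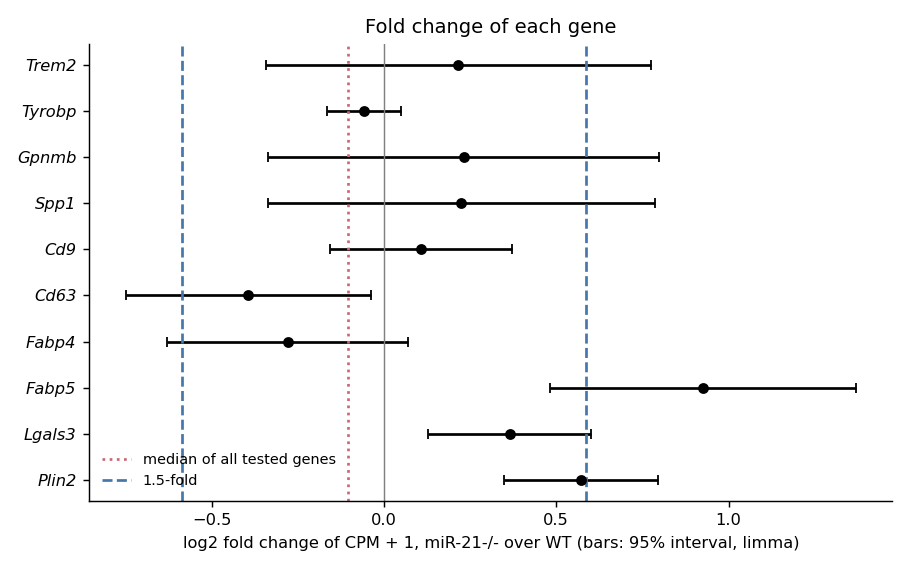
Log2 fold change of CPM + 1, miR-21-/- over WT, of the 10 genes with 95% intervals from limma; dashed lines mark a 1.5-fold change and the dotted line the median of all tested genes (-0.10). Fabp5 (0.93) lies beyond the 1.5-fold line and Plin2 (0.57) just short of it, and the intervals of Trem2, Gpnmb and Spp1 reach from below 0 to beyond 1.5-fold.

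Trem2, Gpnmb and Spp1 had wide intervals because samples of the same genotype differed. Relative to the mean of its own genotype, all 10 genes were above that mean in miR-21-/- replicate 2 and all 10 were below it in miR-21-/- replicate 4. Over all tested genes, 56.7% were above the mean in the former and 46.8% below it in the latter. The deviations of replicate 4 on the log2 scale ran from -0.54 for Spp1 and -0.47 for Trem2 to -0.01 for Tyrobp. Among the WT samples, 8 of the 10 genes were above the mean in replicate 1 and in replicate 3, 3 in replicate 2 and 4 in replicate 4. WT replicate 4 was low in Trem2 (-0.55), Fabp5 (-0.55) and Cd63 (-0.40) and above its mean in Plin2 (0.17), Fabp4 (0.17), Lgals3 (0.07) and Cd9 (0.06). The genes of the group thus did not all follow Trem2 from sample to sample.

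**Figure D4:**
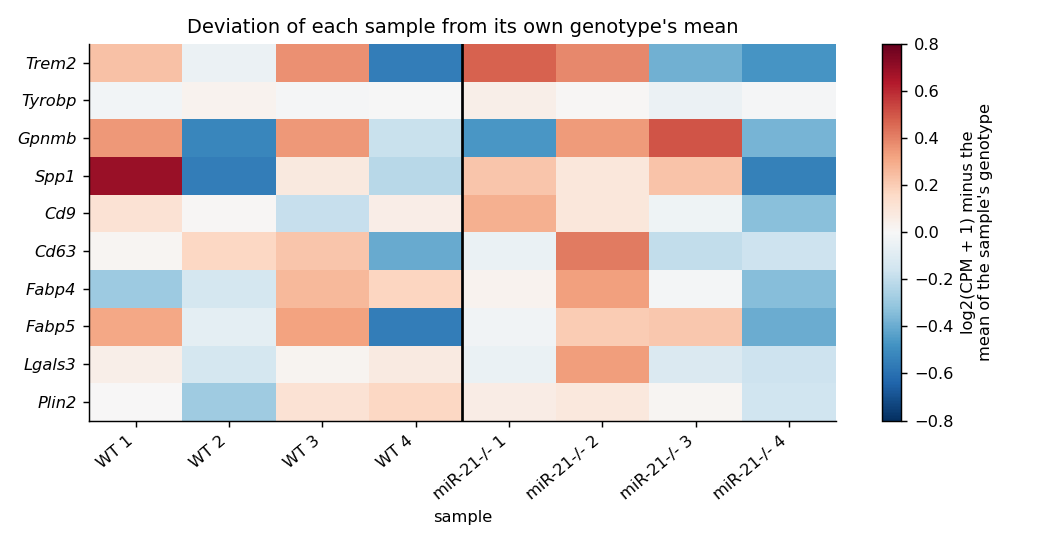
Deviation of log2(CPM + 1) in each of the 8 samples from the mean of the sample's own genotype, for the 10 genes; red is above and blue below that mean. The column of miR-21-/- replicate 2 is above the mean for all 10 genes and that of replicate 4 below it, while Tyrobp is near 0 in each sample.

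The tested genes with the pattern most like that of Trem2 were found by the root mean square difference of the log2 values over the 8 samples, after the mean of each gene was taken away. The nearest were Ahnak, at a difference of 0.13, Lyz2 (lysozyme 2, of myeloid cells) at 0.17 and Cfap45 at 0.18. Ahnak averaged 897 ± 151 CPM in the WT and 1103 ± 301 CPM in the miR-21-/- samples, and Lyz2 at 4640 ± 894 and 6116 ± 1291 CPM. Cfap45 was near the filter, at 1.34 ± 0.64 and 1.82 ± 0.73 CPM. Among the other 9 genes of the group, Cd9 was nearest to Trem2, at 0.35, with 794 other tested genes nearer than it, and Gpnmb was farthest, at 0.51.

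Genes related to the 10 were looked up in 9 lists, and 14 of the 118 distinct genes tested from these lists passed the threshold, 7 higher and 7 lower in miR-21-/- TAMs. Over all tested genes, 2.97% passed as higher and 4.27% as lower. The lists were chosen with earlier results of these data known, so their counts are not independent of the data. Rescaling by the median of ratios moved the median of all tested genes from -0.10 to -0.0024, and the share of higher genes among those past the threshold from 41.1% to 60.2%. Some genes are on more than 1 list.

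Of 23 genes that signal with TREM2 or encode related receptors, 21 were tested and none passed the threshold. At an adjusted p at or under 0.05, 1 of the 21 was higher and 4 were lower, against 9.74% and 27.1% of all tested genes. The median log2 fold change was -0.06, against -0.10 over all tested genes. The highest was Clec5a, a receptor that also uses TYROBP, at 0.80 on the log2 scale (adjusted p = 0.00784 from limma), and the lowest was Treml4, a gene of the TREM cluster, with -0.85 (adjusted p = 0.0324 from limma). Clec5a passed with the replicate number, which follows sample order, as a block (0.80, adjusted p = 0.000612 from limma). Treml4 passed the threshold without miR-21-/- replicate 4 (-1.11), and its adjusted p from limma exceeded 0.05 without WT replicate 2 (0.0826) or 4 (0.0698) or miR-21-/- replicate 1 (0.0753) or 2 (0.0856), with arrayWeights (0.0514), with the median of ratios (0.0606) and when low values were not filtered (0.111). Syk, named after its values were seen, was at -0.08 (adjusted p = 0.541 from limma).

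On a list of 22 further genes of lipid-associated macrophages, all 22 were tested, with 17 higher and 5 lower and a median log2 fold change of 0.33. Of these, 3 passed the threshold as higher and 2 as lower. Cd36, a scavenger receptor that takes up fatty acids and oxidized lipoproteins, was at 36.1, 9.003, 27.1 and 15.6 CPM in the WT samples and at 118, 150, 101 and 102 CPM in the miR-21-/- samples. It rose by 2.52 on the log2 scale (adjusted p = 0.000554 from limma, and 0.00554 with no filter on low values). Clec7a, the β-glucan receptor dectin-1, rose from 117 ± 11.7 to 337 ± 28.4 CPM, or by 1.53 on the log2 scale. Npc2, which encodes a cholesterol-binding protein of the lysosome, rose from 438 ± 29.1 to 662 ± 64.4 CPM, or by 0.59 on the log2 scale. Its value was 0.55 to 0.57, under the fold limit, in 4 of 8 fits with 1 sample removed (those without WT replicate 2 or 4 or miR-21-/- replicate 1 or 2).

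The 2 lower genes were Igf1, a growth factor, which fell from 42.8 ± 19.5 to 5.80 ± 2.08 CPM (-2.58 on the log2 scale, with an adjusted p of 0.0065 from limma when no filter was applied), and Ank, a phosphate transport protein, which fell from 42.8 ± 7.96 to 16.7 ± 3.502 CPM (-1.31). Apoe, a lipoprotein component that binds TREM2, was named after its values were seen. It was at 2061, 2779, 2475 and 1434 CPM in the WT samples and at 1569, 1078, 968 and 898 CPM in the miR-21-/- samples, with overlap through WT replicate 4, and its log2 fold change was -0.95 (adjusted p = 0.00838 from limma). Apoe passed the threshold with quantile normalization, with arrayWeights, and without WT replicate 4 or miR-21-/- replicate 1. Companion genes of the state therefore lay on both sides of 0 in these samples.

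Of 23 genes of lipid droplets other than Plin2, 14 were tested, with a median of 0.02. Dgat1, which makes triglycerides, was higher (0.62, adjusted p = 0.00473 from limma) and Acsl3, a fatty acyl-CoA synthetase, was lower, from 12.4 ± 1.14 to 4.42 ± 0.66 CPM (-1.31, adjusted p = 3.6e-05 from limma). The call of Dgat1 was lost in 7 of 8 fits with 1 sample removed, all but that without WT replicate 1, with log2 fold changes of 0.53 to 0.68. On a list of 16 genes of the PPAR nuclear receptors and their targets, 13 were tested, with a median of -0.13. Cd36 was higher, and Scarb1, a receptor for HDL (-0.83), and Rxrb, a partner of PPARs (-0.65), were lower. Rxrb fell short of the fold limit after rescaling by the median of ratios (-0.54), with quantile normalization (-0.57) and with a pseudocount of 10 (-0.52), and without the low-value filter the adjusted p of Scarb1 from limma was 0.00607. Pparg itself, named after its values were seen, was at -0.22 (adjusted p = 0.471 from limma).

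Of 18 tetraspanins other than Cd9 and Cd63, 16 were tested, with a median of -0.20, and 2 passed, both higher. Tspan3 rose from 58.0 ± 4.25 to 148 ± 18.9 CPM (1.33 on the log2 scale), and Tspan17 from 3.81 ± 0.22 to 6.96 ± 1.64 CPM (0.71), a call that was lost in 7 of 8 fits with 1 sample removed (0.59 to 0.75), all but that without miR-21-/- replicate 3. Tspan9 was the lowest of the list (-0.75, adjusted p = 0.0109 from limma), and passed without WT replicate 1 (-0.90). None of the 7 tested galectins and galectin-related genes besides Lgals3 passed. Their log2 fold changes ran from -0.69 for Lgalsl to 0.21 for Lgals8, with a median of -0.33. Lgalsl passed without miR-21-/- replicate 2 (-0.83). It also passed with the replicate number, which follows sample order, as a block (-0.69, adjusted p = 0.0049 from limma).

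Of 10 genes for receptors of osteopontin, 9 were tested, with a median of 0.14. The integrin Itgb5 was lower, from 161 ± 16.1 to 91.7 ± 1.99 CPM (-0.80 on the log2 scale), and Itga8 was higher (1.06). The call of Itga8 was lost in 6 of 8 fits with 1 sample removed, those without WT replicate 3 or 4 or any of the miR-21-/- replicates, in which its log2 fold change was 0.98 to 1.14. Of 18 genes of the MiT/TFE transcription factors, which drive lysosomal genes and Gpnmb, and of the lysosome, all were tested, with a median of 0.02. Flcn, an inhibitor of these factors, was the 1 gene past the threshold and was lower (-0.66), a call lost without WT replicate 2 (-0.65), WT replicate 3 (-0.57) or miR-21-/- replicate 2 (-0.63). Mitf had the highest value, 0.56 (adjusted p = 0.00211 from limma), under the fold limit, and passed without WT replicate 1 (0.62), WT replicate 3 (0.61) or miR-21-/- replicate 3 (0.59). It also passed after rescaling by the median of ratios (0.67) and with quantile normalization (0.65), while Flcn was at -0.55 with the former and did not pass.

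**Figure D5:**
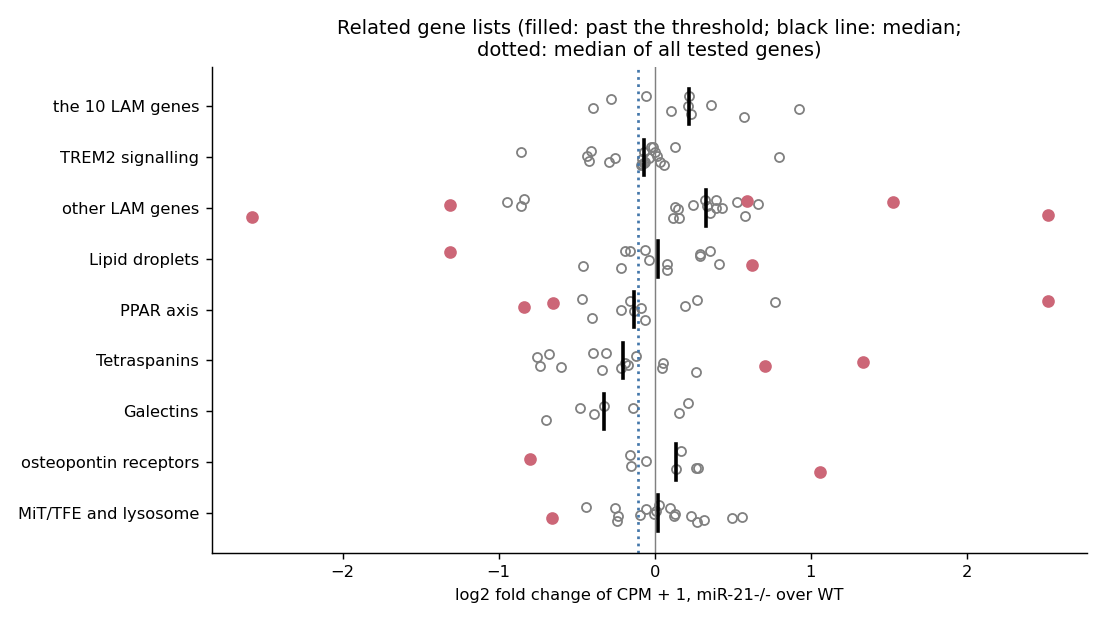
Log2 fold change of CPM + 1, miR-21-/- over WT, of the tested genes of 8 related lists and of the 10 genes themselves; filled red points passed the threshold, black lines are list medians and the dotted line is the median of all tested genes (-0.10). None of the 10 genes is filled, while the other genes of lipid-associated macrophages (other LAM genes) spread from -2.58 for Igf1 to 2.52 for Cd36.

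Markers of other cells moved with the genotype in some lists. The summed level of 8 fibroblast markers was 70.5 to 148 CPM in WT and 18.8 to 51.0 CPM in miR-21-/- samples, with 4 of 7 tested genes past the threshold, all lower. That of 7 neutrophil markers was 769 to 1169 CPM in WT and 564 to 741 CPM in miR-21-/- samples, and that of 6 osteoclast markers was 397 to 443 and 195 to 319 CPM, with Calcr listed at 0.0001 CPM in all samples. Of the osteoclast list Acp5 was lower, at 331 ± 21.5 and 181 ± 34.7 CPM, and Ocstamp lay in the other direction, at 53.0 ± 6.72 and 82.0 ± 20.1 CPM (adjusted p = 0.0212 from limma). The sum of 6 B cell markers was 40.6 to 59.6 and 26.0 to 38.8 CPM, and that of 6 markers of epithelial tumor cells was 18.8 to 24.8 and 12.7 to 17.9 CPM. Mmp8 of neutrophils (-0.81 on the log2 scale) and Cd79b of B cells (-1.45) passed the threshold as lower. Ly6g of neutrophils (0.31) and Thy1 of fibroblasts (0.38) lay higher, with adjusted p-values from limma above 0.05. Ranges overlapped for 8 endothelial markers (154 to 305 and 203 to 292 CPM), 8 markers of T and NK cells (18.4 to 40.6 and 8.49 to 35.8 CPM) and 7 of dendritic cells (11.2 to 19.9 and 15.2 to 38.4 CPM). Pecam1 made up most of the endothelial sum, at 132 to 282 CPM in WT and 186 to 275 CPM in miR-21-/- samples. Cldn5, Emcn, Tek and Tie1 were below the filter on low values. In every WT sample Cd4 was the highest of the T and NK cell markers. Within these sums Cd4 passed the threshold as lower (16.6 ± 10.02 and 2.19 ± 1.15 CPM), while Cd8a (1.92 ± 0.41 and 6.71 ± 3.66 CPM, adjusted p = 0.00806 from limma) and Clec9a of dendritic cells (2.54 ± 0.19 and 8.18 ± 4.29 CPM, adjusted p = 0.00532 from limma) were higher with no overlap and did not pass. Of the dendritic list Cd209a lay lower, at 2.62 ± 2.15 and 0.40 ± 0.51 CPM (adjusted p = 0.0189 from limma), as did Flt3 (-0.50) and Zbtb46 (-0.41), whose adjusted p-values were above 0.05. Xcr1 of that list lay higher, at 3.54 ± 2.40 and 9.61 ± 7.95 CPM (1.06 on the log2 scale, adjusted p = 0.116 from limma). The 7 adipocyte markers summed to 25.4 to 29.0 and 20.7 to 24.5 CPM, of which Lipe was the 1 gene above the filter on low values. The part of such cells in the values of the 10 genes was not tested.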

How the data were processed

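RNA-Seq values of 8 samples of TAMs were used, 4 WT and 4 miR-21-/-. Per the submitters' processing notes, STAR, Partek 7.0 and mm10 were used. The authors deposited CPM values, each raised by 0.0001. The counting rule and use of strand are not given in the sources used here. Between 72.4% and 73.4% of values up to 20 reads were whole reads (within 0.02 of a read), so whole counts were not recovered and no count test was run.

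Genes with a mean of at least 1 CPM were fitted as log2(CPM + 1) with limma 3.58.1 in R 4.3.3 (lmFit, eBayes with an intensity trend, no covariate). Genotype groups came from the labels. Replicate numbers follow the order of the samples within a genotype, and the titles of miR-21-/- replicates 2 to 4 carry another number or a letter. No source says that samples were paired. The labels call the samples biological replicates. Log2 ratios were compared with exact permutation tests over samples. Copies were found with blastn 2.17.0, and figures were drawn with matplotlib 3.10.9. The model was tested on simulated data.

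Genes picked from the related lists are those past the threshold and the highest and lowest of each list. Syk, Apoe and Pparg were added after their values were seen, and other list genes are named where an alternative brought them past the threshold. The members, lists and markers were chosen with earlier results of these data known. Alternatives were pseudocounts of 0.1 and 10, no filter or 5 CPM, the median of ratios, quantile normalization, eBayes without the trend, arrayWeights, a replicate block, each sample left out, and an adjusted p of 0.05 with no fold limit. Summing the copies was added after the data were seen.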

Additional observations from a re-analysis of the deposited data

Results flagged for a closer look

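None of the 10 genes had a sample far from the rest of its genotype by Dixon's criterion, which chance meets in about 1 of 20 groups. Among the genes picked from the related lists and for their likeness to Trem2, 3 did, out of 72 groups tested in all, log2 ratios included. Clec7a was lowest in WT replicate 4, at 99.2 CPM. Flcn was highest in miR-21-/- replicate 3, at 58.2 CPM. Itga8 was highest in miR-21-/- replicate 2, at 37.6 CPM.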

How the results depend on the processing

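With a pseudocount of 10, 453 genes and 9 genes of the related lists passed the threshold instead of 967 and 14, with no filter on low values 515 and 7, and at an adjusted p at or under 0.05 with no fold limit 4917 and 52. Of the 10 genes, 3 passed at that limit (Fabp5, log2 fold change 0.93, Plin2, 0.57, and Lgals3, 0.36). After rescaling by the median of ratios 2 passed, Fabp5 (1.04) and Plin2 (0.68), as did 852 of all 13363 tested genes. Tyrobp turned from -0.058 to 0.053 with this rescaling. The share of higher genes among all those past the threshold was 60.2% with it (60.0% after quantile normalization, 41.1% as reported). With arrayWeights 2 of the 10 passed as well, Fabp5 (0.88) and Plin2 (0.60), as did 1074 of all 13363 tested genes. With the replicate number as a block 1 passed, Fabp5 (0.93). This block joins samples by their order, and for replicates 2 to 4 the titles do not share a number. Under it the log2 ratio of Fabp5 to Fabp4 (1.20) had p = 0.125 by exact permutation within numbers, the smallest that 4 pairs allow. Samples with the same replicate number, given by sample order, had correlations of -0.15 to 0.23 between their deviations. Of the 8 samples, 3 correlated best with their own number. By title, WT replicate 3 shares its number with miR-21-/- replicate 2 (0.14) and WT replicate 4 with miR-21-/- replicate 3 (0.03). WT replicates 1 and 2 share theirs with miR-21-/- replicate 1 (0.09 and -0.001). The numbers were therefore not taken as a pairing. The block gave 907 genes past the threshold.

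When single samples were removed in turn, 0 to 2 of the 10 genes passed, as did 671 to 975 of all 13328 to 13407 tested genes. The log2 fold changes were 0.74 to 1.06 for Fabp5 and 0.48 to 0.63 for Plin2. The log2 ratio of Fabp5 to Fabp4 was 0.96 to 1.40 in these fits, with p = 0.0571 in each by exact permutation test, the smallest that 3 against 4 samples allow. Of the 14 list genes, those that missed the threshold were Cd36, Dgat1, Flcn, Igf1, Itga8, Scarb1 and Tspan17 with no filter, Dgat1, Flcn, Npc2, Rxrb and Tspan17 with a pseudocount of 10, Flcn and Rxrb with the median of ratios, Npc2 and Rxrb with quantile normalization, Dgat1, Npc2 and Tspan17 with arrayWeights, Itga8 and Tspan17 with the block, and Dgat1 without the trend. Other list genes came to pass, namely Gla and Mitf with the median of ratios, Apoe and Mitf with quantile normalization, Apoe, Csf1 and Tspan2 with arrayWeights, and Axl, Clec5a and Lgalsl with the block. With single samples removed, Axl passed without WT replicate 1 or miR-21-/- replicate 4, Csf1 without WT replicate 3 and Ctsl without miR-21-/- replicate 4.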
